A study of Mus musculus with 6 samples.

Results

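Expression of 10 genes of the TGF-beta pathway was followed in cells labelled as alveolar macrophages, either Men1 knockout or wild type. The genes were the ligand gene Tgfb1, the receptor genes Tgfbr1 and Tgfbr2, the Smad genes Smad2, Smad3, Smad4 and Smad7, and the target genes Id1, Id2 and Tgfbi. They were chosen by symbol, with earlier results of these data known, and all 10 were found among the 15824 genes of the deposited expression table. Alveolar macrophages live in the air spaces of the lung, where they take up particles and surfactant. The labelled cells had been isolated from mouse lungs at 8 weeks of age with a flow cytometer, and polyA-selected RNA was sequenced. The groups were Men1 knockout (KO, 3 libraries) and wild type (WT, 3 libraries). How Men1 was deleted, in which cells, on what strain and in mice of which sex are points on which the labels are silent. They also do not say whether each library came from a mouse of its own, so each p-value is set against a spread that may be no more than technical.

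TGF-beta is secreted bound to a latency peptide and, once released, brings together a type II receptor (Tgfbr2) and a type I receptor (Tgfbr1). The type I kinase phosphorylates the receptor-regulated Smads, Smad2 and Smad3, which join the common Smad, Smad4, and bind DNA at target genes in the nucleus. The inhibitory Smad, Smad7, is induced by the pathway and blocks the receptors. In the lung, TGF-beta signalling within alveolar macrophages is needed for their development and upkeep. Menin, the product of Men1, is a scaffold protein of MLL histone methyltransferase complexes and is known as a binding partner of Smad3.

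Libraries held 19955232 to 20151985 read counts. Men1 itself had 7.61, 7.61 and 8.41 CPM (read counts relative to library size, with TMM scaling for composition) in KO libraries 1, 2 and 3, against 31.4, 29.2 and 29.4 CPM in WT libraries 1, 2 and 3, a 3.80-fold lower level in KO. The counts cover the whole gene and not the deleted part alone. The 4 Y-linked genes Eif2s3y, Ddx3y, Kdm5d and Uty summed to at most 0.102 CPM in KO libraries and to at least 162 CPM in WT libraries, so genotype cannot be told apart from the presence of Y-linked transcripts in any comparison below. Of 14 alveolar macrophage markers, 13 were in the table and 8 were tested, 4 higher and 4 lower in KO, and the list summed to 1294 to 1339 CPM in KO and to 381 to 396 CPM in WT. Most of the sum was Marco, at 1137 CPM in KO and 172 CPM in WT. Mertk (42.2 CPM in KO, 14.1 in WT) and Chil3 (13.9 in KO, 6.94 in WT) were also higher in KO, and Atp6v0d2 (60.8 in KO, 119 in WT) and Itgax (43.8 in KO, 52.99 in WT) were lower. Siglecf was at 1.34 CPM in KO and 2.06 CPM in WT, and Fabp1, Plet1, Ear2 and Ear6 had at most 3 counts in every library. Ear1 had at most 4 counts in any library, and Car4 was not in the table. The 8 general macrophage markers together reached 32896 to 33658 CPM in KO and 28084 to 29241 CPM in WT. All 8 were tested, with 5 higher and 0 lower in KO. Lyz2 made up the largest part of this sum, at 18191 CPM in KO and 18215 CPM in WT. Larger differences were seen for Adgre1 (3284.5 CPM in KO, 1290.5 in WT) and Csf1r (2738 in KO, 1432 in WT). General macrophage transcripts were thus abundant, while Siglecf, Fabp1, Plet1 and the Ear genes, listed as markers of the labelled cell type, were low or near 0 in both groups. These genes do not bear out the label, although Marco and other listed markers were well expressed. Which macrophage type the cells were was not tested.

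Promoter sequences are shown for the 2 receptor genes, which were both lower in KO but by unequal amounts, and for 2 targets, Id2 and Tgfbi, which moved in opposite directions. Each is the stretch of 250 bases before the RefSeq start in GRCm38.p6, in the direction of the gene (5′ to 3′). Tgfbr2 lies on the minus strand (chr9:116175364-116175613), Tgfbr1 on the plus strand (chr4:47352972-47353221), Id2 on the minus strand (chr12:25096093-25096342) and Tgfbi on the plus strand (chr13:56609336-56609585). Capitals mark the letters GGCGCC, a GC-rich motif that Smad proteins can bind.
Tgfbr2: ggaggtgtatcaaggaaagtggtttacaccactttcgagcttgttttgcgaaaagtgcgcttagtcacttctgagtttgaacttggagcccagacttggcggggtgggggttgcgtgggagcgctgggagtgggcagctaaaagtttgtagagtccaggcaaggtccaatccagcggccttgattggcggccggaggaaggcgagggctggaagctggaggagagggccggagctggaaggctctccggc
Tgfbr1: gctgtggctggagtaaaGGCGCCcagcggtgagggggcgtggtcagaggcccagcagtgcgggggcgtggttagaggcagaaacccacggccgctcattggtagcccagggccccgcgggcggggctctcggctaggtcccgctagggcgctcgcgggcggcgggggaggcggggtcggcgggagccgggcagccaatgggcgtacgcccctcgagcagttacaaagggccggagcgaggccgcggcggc
Id2: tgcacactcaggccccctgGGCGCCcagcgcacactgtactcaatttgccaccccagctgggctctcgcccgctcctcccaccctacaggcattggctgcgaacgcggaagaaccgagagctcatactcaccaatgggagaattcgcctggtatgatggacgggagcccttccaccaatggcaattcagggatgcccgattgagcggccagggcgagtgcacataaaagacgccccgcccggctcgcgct
Tgfbi: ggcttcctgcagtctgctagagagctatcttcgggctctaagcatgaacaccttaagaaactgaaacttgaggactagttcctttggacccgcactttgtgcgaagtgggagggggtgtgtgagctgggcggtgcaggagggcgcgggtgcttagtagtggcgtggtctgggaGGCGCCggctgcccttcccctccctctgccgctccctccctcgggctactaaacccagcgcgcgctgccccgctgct
The search covered both strands and 6 motifs. These were the palindromic Smad box GTCTAGAC, held by 0.167% of the 32851 RefSeq promoter windows of this length, the Smad motif CAGACA (17.1% of windows) and the GC-rich GGCGCC itself (9.59%). They also included the AP-1 motif TGACTCA (4.46%), the CREB family motif TGACGTCA (1.55%) and the E-box CACGTG (6.02%). Each window held at most 1 match, so none overlapped another. The GC-rich motif was the one found in the printed stretches, once each at position -233 of Tgfbr1, -231 of Id2 and -77 of Tgfbi, counted to its first base from the start of the gene, and none of the 6 was found in that of Tgfbr2. Its letters were thus present before 1 gene that was higher in KO and 2 that were lower. G and C made up 74.8% of the printed Tgfbr1 window, 62.8% of Id2, 62.4% of Tgfbi and 58.4% of Tgfbr2. The median over all windows was 52.4%. The share of 9.59% is not matched for this base content, and enrichment of the motif was not tested. Windows of Tgfb1 and Smad3 held none of the motifs, and a second start of Tgfbr1 (chr4:47385966-47386215) held 1 Smad half-site.

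All 10 genes differed between KO and WT in edgeR's quasi-likelihood test with an adjusted p under 0.05 over all genes, 3 of them higher in KO (Tgfb1, Smad3 and Tgfbi) and 7 lower (Tgfbr1, Tgfbr2, Smad2, Smad4, Smad7, Id1 and Id2). This is to be read against a background in which 69.2% of the 11817 genes tested passed, 34.4% higher and 34.9% lower in KO. Of the calls, 49.6% were thus higher in KO; on the TPM scale, which moved the median log2 fold change of all genes by -0.14, the share was 29.9%, and each of the 10 genes kept its direction. The CPM values of the groups did not overlap for 9 of the 10 genes, and for 71.2% of all genes tested. Changes of at least 1.5-fold were found for 3 of the 10, Id1, Tgfbr2 and Smad7, all lower in KO, while 17.8% of all genes tested passed the test with such a change, 9.39% lower and 8.4% higher. The median log2 fold change was -0.25 for the 10 genes and 0.00143 for all genes tested, and the median size of the log2 change was 0.46 and 0.24.

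**Figure D1:**
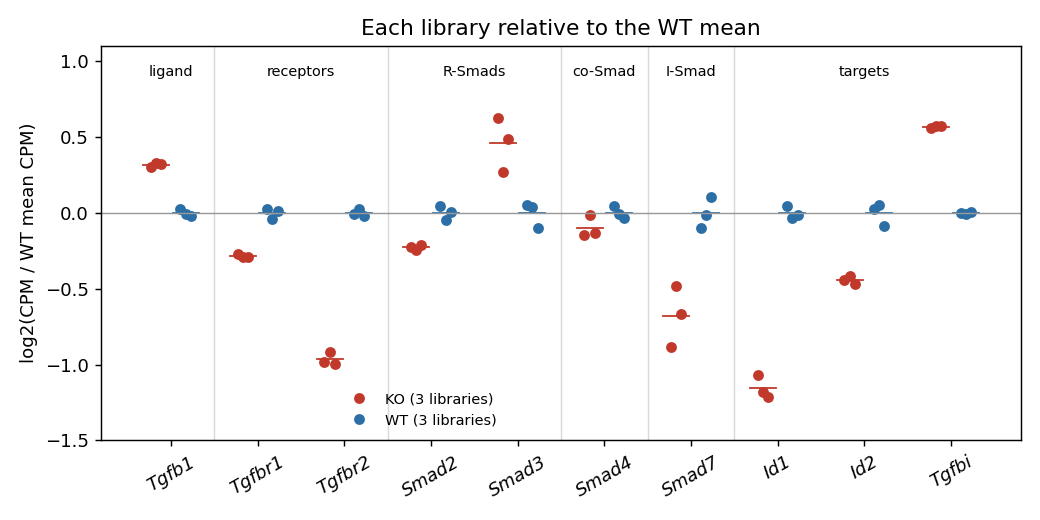
Each point is 1 library, plotted as the log2 of its CPM over the WT mean CPM of that gene, with KO left of WT for each gene and a line at the mean of the log2 values. R-Smads are receptor-regulated Smads, co-Smad the common Smad and I-Smad the inhibitory Smad; KO and WT points overlap for Smad4 and are apart for the other 9 genes.

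The FPKM scale corrects for gene length and allows levels of different genes to be compared. On it, Tgfbi, Id2 and Tgfb1 were the highest of the 10 genes and the Smads the lowest. Smad2 and Smad4 still stood above 55.6% and 55.2% of genes in the table, and Smad3 and Smad7 above 42.3% and 39.3%. Tgfbi led with 452 ± 1.34 FPKM in KO and 318 ± 1.76 FPKM in WT (SD, n = 3 each). Id2 averaged 219 ± 4.20 FPKM in KO and 311 ± 16.1 FPKM in WT, and Tgfb1 218 ± 1.05 FPKM in KO and 182 ± 3.74 FPKM in WT. The next level was held by Id1 (30.8 ± 1.93 FPKM in KO, 71.2 ± 2.83 in WT), Tgfbr2 (25.3 ± 0.721 in KO, 51.5 ± 0.852 in WT) and Tgfbr1 (18.7 ± 0.201 in KO, 23.6 ± 0.569 in WT). Smad2 and Smad4 were at 6.35 ± 0.0954 and 6.52 ± 0.300 FPKM in KO and at 7.75 ± 0.265 and 7.26 ± 0.221 FPKM in WT. The lowest were Smad3, at 3.06 ± 0.351 FPKM in KO and 2.30 ± 0.197 FPKM in WT, and Smad7, at 1.53 ± 0.168 FPKM in KO and 2.34 ± 0.0503 FPKM in WT. Neighbours in this order whose libraries overlapped were Id2 and Tgfb1, and Smad4 and Smad2, in KO, and Tgfbi and Id2, Smad2 and Smad4, and Smad7 and Smad3, in WT. Smad3 and Smad7, which overlapped in WT, were apart in KO, where the lowest Smad3 value (2.70 FPKM) was above the highest Smad7 value (1.72 FPKM).

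**Figure D2:**
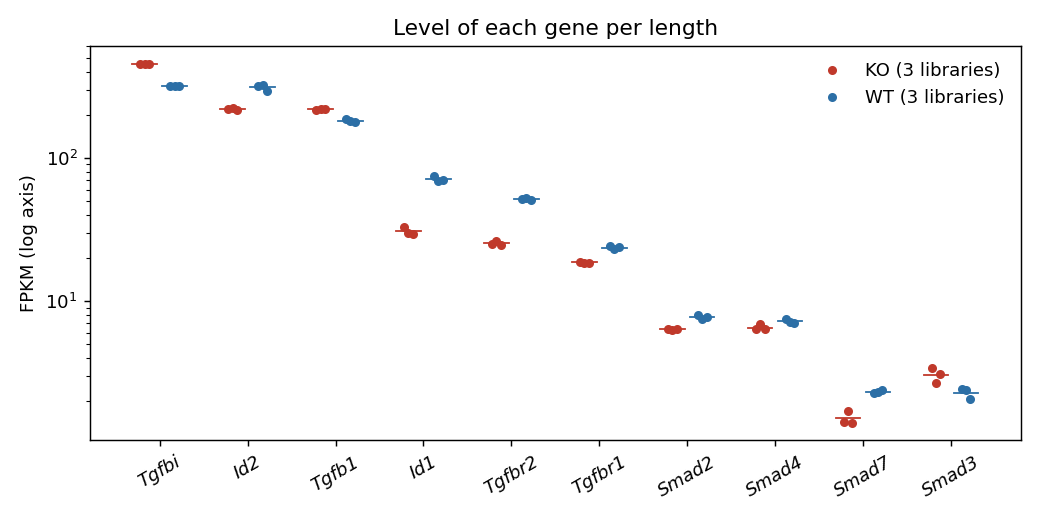
FPKM of each gene in each library on a log axis, with KO left of WT and a line at the group mean; genes are ordered by the WT mean. The range runs from 452 FPKM for Tgfbi to 1.53 FPKM for Smad7, both KO means.

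The ligand gene Tgfb1 was higher in KO. It had 405, 412 and 412 CPM in KO libraries 1, 2 and 3, against 335, 328 and 324 CPM in WT libraries 1, 2 and 3. Every KO library was above every WT library, and the spread within each group was a few CPM. The change was 1.25-fold (log2 0.32, SE 0.0211; adjusted p = 9.36e-16, edgeR). Tgfb1 lies on chromosome 7 from position 25687002 to 25705077 (GRCm38.p6, plus strand). The other TGF-beta ligand genes were near the limit of detection: Tgfb2 had 2, 2 and 6 counts in KO and 17, 12 and 18 counts in WT, and Tgfb3 had 8, 9 and 13 counts in KO and 13, 16 and 13 counts in WT (both chosen after their values were seen). Tgfb1 was therefore the TGF-beta ligand gene with by far the most reads in both groups.

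The receptor genes were both lower in KO, and by unequal amounts. Tgfbr2, which encodes the ligand-binding type II receptor kinase, had 113, 118 and 112 CPM in KO libraries, against 222, 227 and 219.8 CPM in WT libraries. No KO library came near a WT library, and the fall was 1.95-fold (log2 -0.96, SE 0.0269; adjusted p = 3.79e-27, edgeR). Of all genes tested, 91.3% had a smaller change. Tgfbr1, encoding the type I receptor kinase that phosphorylates Smad2 and Smad3, had 104, 102 and 103 CPM in KO libraries, against 127, 122 and 127 CPM in WT libraries. Its groups did not overlap either, but the fall was 1.22-fold (log2 -0.28, SE 0.0290; adjusted p = 9.03e-11, edgeR), a size larger than that of 55.7% of genes tested. Within a library, FPKM of Tgfbr2 over Tgfbr1 was 1.33, 1.41 and 1.33 in KO and 2.14, 2.28 and 2.13 in WT. The log2 ratio was lower in KO (log2 difference -0.68, SE 0.0425), and KO and WT ratios did not overlap. Tgfbr2 lies on chromosome 9 (116087695 to 116175363, minus strand) and Tgfbr1 on chromosome 4 (47353222 to 47414926, plus strand).

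The 2 receptor-regulated Smads moved in opposite directions. Smad2 had 54.6, 53.7 and 54.97 CPM in KO libraries, against 65.7, 61.6 and 63.9 CPM in WT libraries. Every KO library was lower, with a fall of 1.17-fold (log2 -0.23, SE 0.0374; adjusted p = 2.02e-06, edgeR). Smad3, a Smad to which menin binds, had 15.6, 12.2 and 14.2 CPM in KO libraries, against 10.5, 10.4 and 9.46 CPM in WT libraries. The KO values were all higher, although KO library 2 stood closer to WT than the other two, and the rise was 1.38-fold (log2 0.47, SE 0.0844; adjusted p = 8.05e-06, edgeR). The log2 change was 0.56 without KO library 2 and 0.39 without KO library 1, and the call held in both fits. These values rest on 239 to 308 counts in KO and 194 to 214 counts in WT. FPKM of Smad2 over Smad3 was 1.88, 2.31 and 2.07 in KO libraries and 3.30, 3.13 and 3.74 in WT libraries, so Smad2 remained the more abundant of the pair in all 6 libraries while the ratio was lower in KO (log2 -0.70, SE 0.115). Smad3 lies on chromosome 9 (63646766 to 63757994, minus strand) and Smad2 on chromosome 18 (76241090 to 76311748, plus strand).

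The common Smad gene Smad4 showed the smallest change of the 10 genes. It had 46.7, 51.1 and 47.2 CPM in KO libraries, against 53.3, 51.4 and 50.4 CPM in WT libraries. KO library 2 was above WT library 3, so the groups overlapped. The fall was 1.07-fold (log2 -0.10, SE 0.0416; adjusted p = 0.0374, edgeR), and 22.4% of genes tested had a smaller change. The call was lost without KO library 1 (adjusted p = 0.174), KO library 3 (0.145), WT library 1 (0.158) or WT library 2 (0.0594), and in DESeq2 (0.127).

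Smad7, the feedback inhibitor of the receptors, was lower in KO. Its level was low, with 96, 126 and 111 counts in KO libraries 1, 2 and 3, against 171, 181 and 198 counts in WT libraries 1, 2 and 3. In CPM these were 4.87, 6.44 and 5.66 in KO and 8.39, 8.89 and 9.65 in WT, with no overlap. The fall was 1.59-fold (log2 -0.67, SE 0.104; adjusted p = 7.53e-07, edgeR), the third in size among the 10 genes and the one with the widest error. FPKM of Smad7 over Smad3 was 0.424, 0.637 and 0.46 in KO libraries, against 0.942, 0.975 and 1.15 in WT libraries (log2 difference -1.03, SE 0.201). FPKM of Smad7 over Tgfbr1 differed less, at 0.0762, 0.0929 and 0.0765 in KO and 0.0951, 0.101 and 0.1003 in WT, where the highest KO ratio was just under the lowest WT ratio (log2 difference -0.28, SE 0.0984). Smad7 and Smad4 lie on chromosome 18, from 75367365 to 75395935 and from 73634790 to 73703791.

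The target genes divided. Id1 and Id2 encode helix-loop-helix proteins without a DNA-binding region, which hold basic helix-loop-helix factors in inactive pairs. Id1, a classical target of the BMP branch, had 20.2, 18.6 and 18.2 CPM in KO libraries, against 43.6, 41.3 and 41.9 CPM in WT libraries. Its fall of 2.22-fold was the largest change of the 10 genes (log2 -1.15, SE 0.0512; adjusted p = 7.1e-21, edgeR), and 93.4% of genes tested had a smaller one. Id2 had 210.4, 214 and 207 CPM in KO libraries, against 291, 297 and 269.6 CPM in WT libraries, a fall of 1.36-fold (log2 -0.44, SE 0.0272; adjusted p = 1.13e-16, edgeR). Both genes were lower in all KO libraries. The ratio of Id1 to Id2 in FPKM was 0.149, 0.136 and 0.137 in KO, against 0.233, 0.215 and 0.241 in WT (log2 difference -0.71, SE 0.0660). Id1 lies on chromosome 2 (152736251 to 152737410, plus strand) and Id2 on chromosome 12 (25093799 to 25096092, minus strand).

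Tgfbi, which encodes a secreted matrix adhesion protein named for its induction by TGF-beta, went the other way. It had 1091, 1102 and 1106 CPM in KO libraries, against 741, 738 and 746 CPM in WT libraries. The libraries of each group lay within a narrow band, and the rise was 1.48-fold (log2 0.57, SE 0.0175; adjusted p = 8.69e-26, edgeR). FPKM of Tgfbi over Id2 was 2.04, 2.04 and 2.12 in KO and 0.999, 0.984 and 1.09 in WT (log2 difference 1.01, SE 0.0502). These targets had near-equal FPKM in WT, and in KO the level of Tgfbi was about 2.06 times that of Id2. Tgfbi lies on chromosome 13 (56609586 to 56639359, plus strand).

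**Figure D3:**
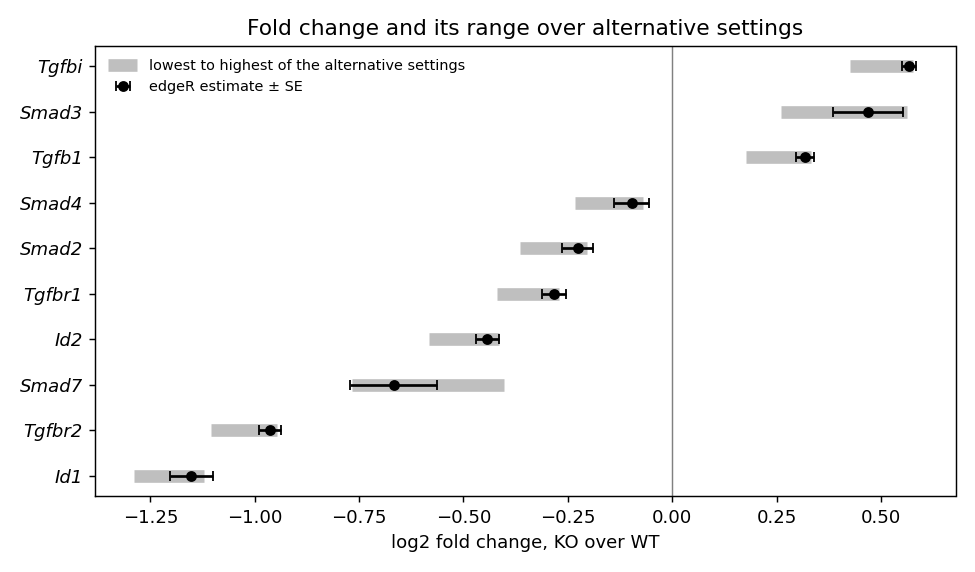
Log2 fold change of KO over WT for each gene from edgeR (point, bar = SE), with a grey band from the lowest to the highest value over 21 alternative settings. The bands stay on 1 side of 0 for all 10 genes in these settings, and that of Smad4 reaches -0.07.

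Across the receptor step, Tgfb1 over Tgfbr2 showed the largest difference of the 7 ratios compared. FPKM of the ligand gene was 8.63, 8.37 and 8.83 times that of the type II receptor gene in KO libraries, against 3.62, 3.46 and 3.53 times in WT libraries (log2 difference 1.28, SE 0.0295). Ratios within a library do not depend on how libraries are scaled to each other. Each of the 7 ratios named here had groups that did not overlap, and each gave p = 0.1 in a two-sided exact permutation test (adjusted p = 0.1 over 7), the smallest value that 3 against 3 libraries allow.

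**Figure D4:**
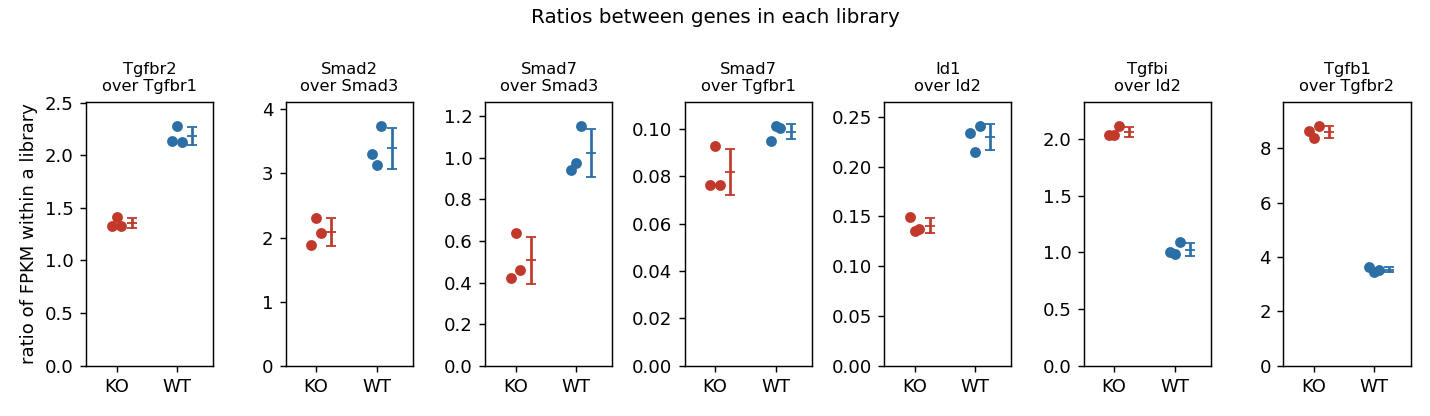
Ratio of FPKM between 2 genes within each library, 1 panel per ratio with its own axis from 0; points are the 3 libraries, KO left of WT, and bars beside them show mean ± SD. KO and WT points are apart in all 7 panels, most narrowly for Smad7 over Tgfbr1.

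The rest of the pathway was described from a list of 96 further genes in 7 roles, of which 94 were in the table and 83 passed the filter on low counts. Of these 83, 39 were lower and 20 higher in KO, and 24 did not pass the test. Of the 20 that were higher, Nrros, Fkbp1a, Tgfbrap1, Ep300 and Zeb2 (chosen after their values were seen) had the opposite sign on the TPM scale. Some entered through their WT level alone, such as Inhbb with 2, 3 and 1 counts in KO and 10, 14 and 15 counts in WT (chosen after its values were seen), so the count of lower genes is a description only. Of the 64 genes with a mean of at least 5 CPM over all 6 libraries, 43.8% were lower and 26.6% higher, beside 35.7% and 36.9% of all genes at that level. The target genes held much of this difference, with 11 of 14 lower and 1 higher, whereas nuclear partners of the Smads stood at 4 lower and 6 higher of 14 (Ep300 and Zeb2 among the 6 had the opposite sign on the TPM scale), and receptors at 3 lower and 3 higher of 8.

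Among the other targets, Ccn2, the connective tissue growth factor gene, fell 13.0-fold to 1.14 ± 0.334 CPM in KO, against 14.9 ± 0.944 CPM in WT (adjusted p = 1.7e-23, edgeR). The cell cycle inhibitor gene Cdkn1a was 1.63-fold lower, at 133 ± 2.10 CPM in KO and 216 ± 5.85 CPM in WT, and Bhlhe40, encoding a transcriptional repressor, was 1.80-fold lower, at 67.3 ± 2.12 CPM in KO and 121 ± 3.13 CPM in WT. The 1 listed target that was higher was Id3, the third Id gene examined, with 67.7 CPM in KO and 45.0 CPM in WT (log2 0.59; chosen after its values were seen). Id3 therefore moved against Id1 and Id2. Pparg, the transcription factor gene through which TGF-beta supports alveolar macrophages, was at 13.1 CPM in KO and 18.96 CPM in WT (log2 -0.54, adjusted p = 1.52e-08, edgeR; chosen after its values were seen).

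Markers of fibroblasts and smooth muscle that were tested moved with the lower targets. Of 16 markers of fibroblasts, smooth muscle and mesothelium, 15 were in the table and 11 were tested. All 11 were lower in KO, beside 34.9% of all genes tested. Some entered through their WT level alone, such as Lum with 8, 4 and 4 counts in KO and 21, 13 and 19 counts in WT. The count of lower markers is therefore a description only. The list summed to 17.4 to 20.1 CPM in KO libraries and to 96.5 to 99.1 CPM in WT libraries. Thy1, Msln and Wnt2 had 3 counts or fewer in every library. Upk3b, which was not tested, was at 0.374 CPM in KO and 0.179 CPM in WT (Lum and Upk3b chosen after their values were seen). Col1a1 and Col1a2 stand on both lists, and of these only Col1a2 had a mean of at least 5 CPM. Without Col1a2, 10 of 13 targets at that level were lower, beside 35.7% of all genes at that level. The target list was chosen with earlier results of these data known, so this share is a description only. In bulk RNA, fewer cells of a type and less RNA per cell cannot be told apart, and the part of these markers in the falls of Ccn2, Id1 and Tgfbr2 was not tested. Endothelial markers, listed because endothelium also expresses Id1, summed to 64.2 to 66.7 CPM in KO and 76.3 to 79.4 CPM in WT, with 5 of 6 in the table, 4 tested, 1 higher and 2 lower in KO. Vwf (41.6 CPM in KO, 51.8 in WT) and Kdr (13.4 in KO, 19.4 in WT) were lower in KO, as Id1 was, and Pecam1 was higher (7.55 in KO, 4.38 in WT), while Cdh5 was at 2.68 CPM in KO and 2.25 CPM in WT and Tek at 0.237 CPM in KO and 0.147 CPM in WT. The part of the endothelial markers in the fall of Id1 was not tested.

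Of 7 further genes for ligands and their relatives tested, 5 were lower and 1 higher in KO. Among all genes tested, 34.9% were lower and 34.4% higher, and 1 of the 7 reached a mean of 5 CPM. Tgfb2 and Inhbb among the 5 entered through their WT level alone, so this count is a description only. The 1 that was higher was Bmp2, at 0.9003 CPM in KO and 0.457 CPM in WT (adjusted p = 0.00967, edgeR; chosen after its values were seen). Inhba, the activin A subunit gene, averaged 0.594 ± 0.0760 CPM in KO and 4.87 ± 0.181 CPM in WT, 8.11-fold lower (adjusted p = 3.47e-16, edgeR). Gdf15, a distant member of the family, had 5.60 ± 0.245 CPM in KO and 16.1 ± 1.16 CPM in WT, and Bmp1, which despite its name encodes a protease that trims procollagen, 1.32 ± 0.223 CPM in KO and 4.69 ± 0.361 CPM in WT. Genes for latency and activation divided. Itgav, the integrin alpha-v chain that binds latent TGF-beta, was lower (log2 -0.59), at 129 ± 4.09 CPM in KO and 194 ± 6.39 CPM in WT, and Ltbp2, a matrix protein of the latent TGF-beta binding family, 3.24-fold lower. Itgb5, a partner chain of alpha-v, was 1.33-fold higher, at 182 ± 13.5 CPM in KO and 137 ± 2.91 CPM in WT, and Furin, the convertase that cleaves the TGF-beta precursor, 1.32-fold higher, at 85.9 ± 1.99 CPM in KO and 64.96 ± 4.61 CPM in WT.

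Of the 8 further receptor genes with a mean of at least 5 CPM, each had a log2 fold change smaller in size than that of Tgfbr2, the largest being 0.38 for Acvr1b. The coreceptor gene Nrp1 was 1.24-fold higher, at 355 ± 8.32 CPM in KO and 286 ± 4.43 CPM in WT, and Acvr1b, an activin type I receptor gene, 1.30-fold higher. Bmpr2, the BMP type II receptor gene, was 1.18-fold lower, and the low-level betaglycan gene Tgfbr3 was lower (log2 -1.22), at 0.798 ± 0.205 CPM in KO and 1.86 ± 0.362 CPM in WT. Of the other Smads, Smad1, which carries BMP signals, was 1.24-fold higher, at 23.5 ± 1.47 CPM in KO and 18.9 ± 0.413 CPM in WT (adjusted p = 1.79e-05, edgeR). Smad5, with the same role, and the second inhibitory Smad gene, Smad6, did not pass the test (log2 0.08 and 0.06), so Smad6 and Smad7 did not give the same call, although the difference between them was not tested.

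Of 20 genes for inhibitors and turnover factors, 7 were lower and 2 higher, Fkbp1a and Tgfbrap1, both of which had the opposite sign on the TPM scale. The share that was lower was thus close to the 34.9% of all genes tested. The share that was higher was well under the 34.4% of all genes tested, and 11 of the 20 did not pass the test. Nedd4l, a ubiquitin ligase for activated Smad2 and Smad3, was 1.70-fold lower, at 35.2 ± 3.91 CPM in KO and 59.9 ± 1.26 CPM in WT. Pmepa1, which sequesters receptor-regulated Smads and is itself a target, was 2.05-fold lower, at 2.36 ± 0.394 CPM in KO and 4.85 ± 0.503 CPM in WT. The deubiquitinase gene Usp15 and the receptor-associated gene Strap were also lower (log2 -0.29 and -0.27). Among nuclear partners, Runx3 was lower (log2 -1.81), at 4.84 ± 0.806 CPM in KO and 16.95 ± 0.557 CPM in WT. The AP-1 genes divided, since Jun and Fos were 1.46-fold and 1.33-fold lower while Jund, whose product also binds menin, was 1.46-fold higher, at 47.3 ± 2.03 CPM in KO and 32.4 ± 1.88 CPM in WT (adjusted p = 1.13e-12, edgeR).

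**Figure D5:**
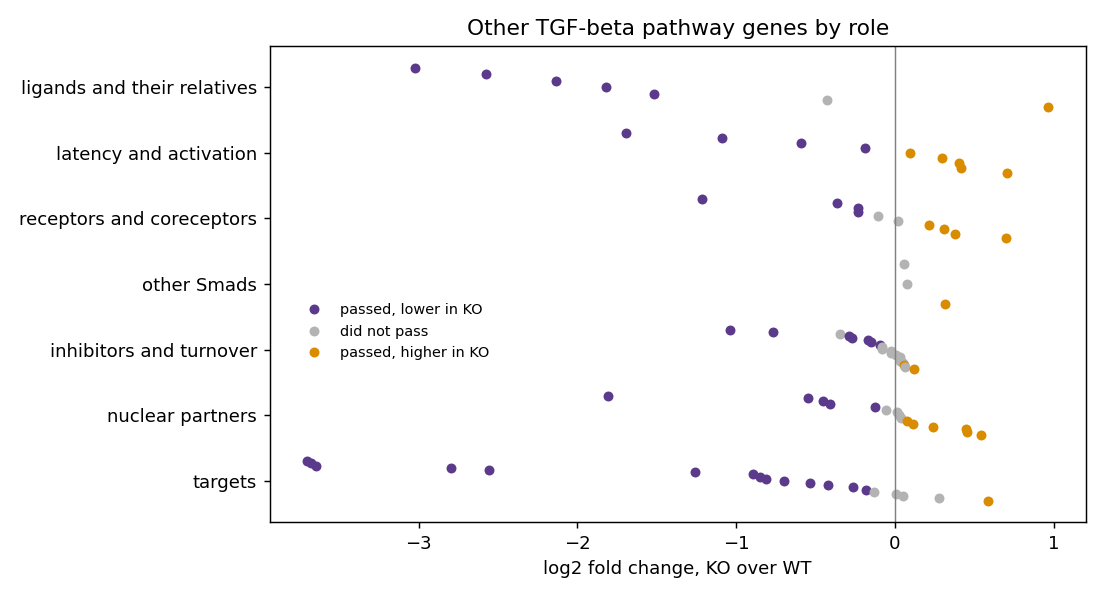
Log2 fold change of KO over WT for the 83 further pathway genes tested, 1 point per gene, in rows by role; colours give the call in edgeR at an adjusted p of 0.05. The targets lie mostly to the left, down to -3.70 for Ccn2, and nuclear partners lie on both sides of 0.

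The tests rest on a very small spread between libraries. With an assumed coefficient of variation of 0.1, 7 of the 10 genes passed, and Tgfbr1 (adjusted p = 0.0505), Smad2 (0.138) and Smad4 (0.575) did not.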

How the data were processed

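RNA of 3 KO and 3 WT libraries was measured by sequencing. Per the submitters' processing notes, HISAT, Bowtie2 and the build GRCm38.p6 were used, without their roles; counter, annotation and use of strand are not stated there, so overlapping or antisense genes are uncertain, although no RefSeq gene that overlaps 1 of the 10 is in the table. The authors deposited estimated counts (expected counts) per gene, not whole for 8.66% to 9.19% of genes (tolerance 0.005), and these were rounded first. Per the file headers, the authors also deposited FPKM and TPM values, both scaled to gene length and depth. A further 6 columns of normalised counts and 6 of a heat map table were not used.

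KO and WT were compared with edgeR 4.0.16 (R 4.3.3; quasi-likelihood test, TMM scaling, filterByExpr, group only), with Benjamini-Hochberg adjustment over 11817 genes and a threshold of 0.05. CPM are counts scaled to TMM-adjusted library sizes. The SE of a log2 fold change was derived from the F statistic. Libraries of a group differed beyond counting noise (chi-square per gene 1.37 to 1.61, and 61.9 to 64.8 between groups), and each was counted as its own sample. The genes and lists were chosen with earlier results of these data known. Further pathway genes were named by smallest p (up to 4 per role, groups apart, at least 1 CPM in a group), and a gene so named is not reported here. On simulated counts for KO against WT with 11716 genes, the test called 43 of 50 genes changed 1.25-fold, 50 of 50 changed 1.5-fold and 10 of 11516 unchanged genes. Alternatives used DESeq2 1.42.0 and limma 3.58.1 (pseudocounts of 1 and 0.1). Python 3.11.15 with SciPy 1.17.1 was used for ratios. Gene positions and promoters are from RefSeq (GRCm38.p6). A promoter window was matched for 6 of the 10 genes.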

Additional observations from a re-analysis of the deposited data

How the results depend on the processing

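Over 21 alternative settings, none of the 10 genes changed direction, and Tgfb1, Tgfbr2, Smad3, Smad7, Id1, Id2 and Tgfbi passed the threshold in every one. With a change of at least 1.5-fold required, the count of genes called was 3 of the 10, 26 of the other pathway genes (59 by the test alone) and 2103 of all genes (8179 by the test alone). With an assumed coefficient of variation of 0.1 the counts were 39 other pathway genes and 4406 of all genes; the wider spread comes from the setting itself. Counting only pathway genes with a mean of at least 5 CPM, chosen after seeing the data, left 45 called. Leaving out 1 library at a time gave 9 to 10 of the 10 genes, 54 to 58 other pathway genes and 7755 to 7935 of all genes. Without the low-count filter Smad4 did not pass (adjusted p = 0.0851; range over its settings 0.00133 to 0.575). Values on the TPM scale moved the median log2 fold change of all genes by -0.14, and 29.9% of the calls were then higher in KO, against 49.6% in the main test. On that scale Tgfb1 kept a log2 change of 0.18, Smad3 0.26 to 0.32 and Tgfbi 0.43, and of the 59 other pathway genes called, Nrros, Fkbp1a, Tgfbrap1, Ep300 and Zeb2 changed sign there; Fkbp1a did so also on the FPKM scale and with library totals alone. The TPM scale gave 11 to 13 other pathway genes higher and 50 lower.

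With the replicate number as a block, 10 of the 10 genes, 59 other pathway genes and 8321 of all genes passed. The numbers do not pair the libraries by the labels, and the correlations of same-numbered libraries were 0.097, 0.033 and 0.053, although each library correlated best with its own number, which is a hint from the data only. Low counts limit Smad7 and Smad3 most, and a count of 3 in a library corresponds to about 0.15 CPM.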
